A study of Mus musculus with 32 samples.

Results

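The 40 genes described here encode proteins that write, erase or assist histone methylation, apart from the KMT2 and SETD1 methyltransferases and the KDM5 demethylases of H3K4. They were taken from a list of symbols (subunits of COMPASS, histone demethylases outside the KDM5 family, lysine methyltransferases and the core of PRC2), and all 40 were found among the 53715 genes of the table. The study bred *Kmt2a* heterozygous fathers of strain 129S1/SvImJ to *Kdm5c* heterozygous C57BL/6J mothers, and its adult male F1 offspring (129xB6) were wild type (WT), *Kmt2a*-HET with 1 intact allele of *Kmt2a*, *Kdm5c*-KO without the single X-linked copy of *Kdm5c*, or double mutant (DM) with both changes. Both deletions were carried in the whole body and removed part of the exons, and WT carried neither. Polyadenylated RNA of the amygdala and the hippocampus was sequenced in 4 mice per genotype, which gave 32 libraries from 16 mice. The question was whether losing a writer (KMT2A), an eraser (KDM5C) or both was accompanied by altered RNA of the other methylation enzymes, and how these RNAs differed between the 2 regions.

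Methyl groups on histone lysines are added by SET-domain enzymes and by DOT1L, and are removed by the flavin-dependent LSD enzymes and by the JmjC dioxygenases. The KMT2 enzymes act inside COMPASS, whose core of WDR5, RBBP5, ASH2L and DPY30 is needed for full activity, and H3K4 methylation marks promoters and enhancers. PRC2 deposits repressive H3K27 methylation, SUV39H and EHMT enzymes methylate H3K9 in silent chromatin, and SETD2, NSD and ASH1L enzymes methylate H3K36. Several of these genes, among them *Kdm1a*, *Ehmt1*, *Nsd1*, *Setd5* and *Ash1l*, are known from human neurodevelopmental disorders.

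Gene counts per library ran from 19215503 to 26033615 (amygdala) and from 19322262 to 27798980 (hippocampus), so that 38 of the members had means of at least 144.5 normalised counts in both regions, and *Ezh2* and *Suv39h2* had means between 54.3 and 76.6. The spike-in share was 0.12 to 0.511% and 0.0503 to 0.295%. In the amygdala mean normalised counts of the whole *Kdm5c* gene were 1570 in WT and 1259 in *Kdm5c*-KO. *Kmt2a* means there were 4076 in WT and 4107 in *Kmt2a*-HET. In the hippocampus *Kdm5c* means were 1640 in WT and 1296 in *Kdm5c*-KO. *Kmt2a* means there were 4468 in WT (3318 to 6154), 5172 in *Kmt2a*-HET (3388 to 6900), 4136 in *Kdm5c*-KO and 4636 in DM. Totals over a whole gene include exons outside the deleted part and therefore do not check the genotype labels. Hippocampal markers (8 of 8) were higher in the hippocampus, striatal markers (6 of 6) were higher in the amygdala libraries, where their summed counts ran from 6572 to 50680, and of the 6 amygdala markers *Sim1* and *Tac2* were higher in the amygdala while *Rspo2* and *Etv1* were higher in the hippocampus. The libraries numbered 1 of each genotype stood apart from the others in both regions, in a way that followed gene length, as given further on. In such bulk samples fewer cells of a type and less RNA per cell cannot be told apart.

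Levels were compared between genes as normalised counts per kb of merged exons. In the amygdala the highest levels per kb were those of *Psip1* (669.8 ± 36.9, SD, n = 16), *Setd3* (602.7 ± 29.7) and *Men1* (442.8 ± 36.3). PSIP1 is a chromatin reader that tethers the menin-KMT2A complex, menin is encoded by *Men1*, and SETD3 methylates a histidine of actin. In the hippocampus *Psip1* (664.8 ± 38.3 per kb) and *Setd3* (545 ± 13.3 per kb) again led, followed by *Kdm4b* (482.2 ± 61.6 per kb), an H3K9 demethylase. The lowest levels per kb in both regions were those of *Kdm1b*, *Suv39h2* and *Ezh2*, at 35.6 ± 4.31, 12.3 ± 2.70 and 10.3 ± 2.86 in the amygdala. Hippocampal levels per kb of these 3 were 35.4 ± 3.96, 17.4 ± 2.28 and 11.5 ± 2.10. The other subunits of PRC2 were far more abundant in the amygdala, with *Ezh1* at 204.8 ± 10.9 per kb, *Suz12* at 156.5 ± 13.2 and *Eed* at 59.9 ± 5.72. Thus per kb of merged exons the EZH enzyme known from dividing cells was the least abundant of the 40. Its paralogue *Ezh1*, known from cells that no longer divide, stood 15th in the amygdala. The ranks of the 40 genes were alike in the regions (Spearman's rho 0.948 across genes, which are not independent replicates). With the length of the most abundant transcript in place of merged exons the order moved (rho 0.886 for the amygdala, 0.902 for the hippocampus). *Setd3* rather than *Psip1* then came first, and *Suv39h2* rather than *Ezh2* last. On that measure *Suv39h2* stood at 12.55 and *Ezh2* at 24.64 in the amygdala, and at 17.71 and 27.44 in the hippocampus. *Setd3* was also the steadiest member across libraries, with a coefficient of variation of 3.89% after removal of the region means, and *Ezh2* the most variable, at 23.6%.

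Differences between the genotypes were small for nearly all of the 40 genes. Over 16 comparisons per gene (each mutant with WT, DM with each single mutant, the interaction, by which DM departs from both single-mutant changes added up, and 8 mice against 8 by *Kdm5c* or by *Kmt2a*), 592 of 640 log2 fold changes (92.5%) lay within 0.2 of zero, and 585 (91.4%) had a 95% interval inside ±0.5. The full range was -0.42 to 0.79. These values are relative to the bulk of the RNA. With spike-in size factors the median of all genes moved to between -0.71 and 0.19 over the 16 comparisons, 237 of the 640 values (37%) lay within 0.2 of zero, and 592 lay within 0.2 of the median of all genes. Dividing the highest genotype mean of a gene by its lowest gave median ratios of 1.08 (amygdala) and 1.12 (hippocampus), with the largest ratios at 1.67 for *Ezh2* and 1.37 for *Kdm7a*. The comparisons share WT, *Kmt2a*-HET, *Kdm5c*-KO or DM libraries, so they are not independent of one another.

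**Figure D1:**
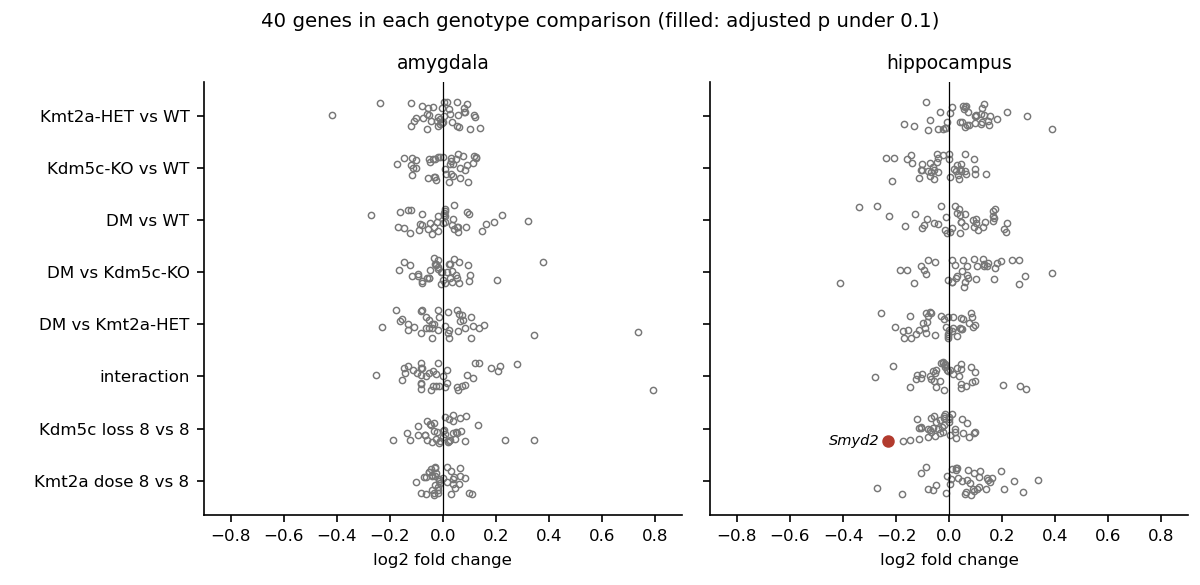
Log2 fold changes of the 40 genes (1 circle per gene, scattered vertically for legibility) in 8 comparisons per region. The values crowd around 0 within a range of -0.42 to 0.79, and the filled circle marks *Smyd2*, the only gene called by DESeq2 at an adjusted p under 0.1.

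In the amygdala none of the 40 was called by DESeq2 at an adjusted p under 0.1, a threshold that 0.00329% of all genes tested passed for *Kmt2a*-HET against WT, 0.751% for *Kdm5c*-KO against WT, 0.966% for DM against WT, 0.00329% for DM against *Kdm5c*-KO and 0.845% for DM against *Kmt2a*-HET. The interaction (0.00329% of all genes), the 8 mice without *Kdm5c* against 8 with it (1.68%) and the 8 with reduced *Kmt2a* against 8 with both alleles (0.0%) likewise held 0 members. In the hippocampus 0 members passed for *Kmt2a*-HET against WT (0.0% of all genes), *Kdm5c*-KO against WT (1.01%), DM against WT (0.875%), DM against *Kdm5c*-KO (0.0067%), DM against *Kmt2a*-HET (0.603%), the interaction (0.0%) and reduced *Kmt2a* (0.103%). The 8 against 8 comparison by *Kdm5c* in the hippocampus held 1 member, against 2.66% of all genes. Of the 640 tests 27 (4.22%) had an unadjusted p under 0.05, 4 of them in the amygdala, against 4.91% of the tests of all genes in the 16 comparisons together (1.91 to 9.98% in single comparisons). The quasi-likelihood test of edgeR called 0 members in each of the 16 comparisons, where it called 0 to 0.931% of all genes.

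The member called was *Smyd2* (ENSMUSG00000026603.13, mm10, chromosome 1, 189880492 to 189922363, minus strand), whose product methylates H3K36 and also non-histone proteins such as p53. In the hippocampus WT libraries held 1240.7, 999.6, 1203.6 and 1228.7 normalised counts of *Smyd2*, and *Kmt2a*-HET libraries held 1269.3, 1110.8, 1017.5 and 1016.3. In *Kdm5c*-KO they held 933.8, 1093.8, 1086.1 and 938.6, and in DM 958.5, 868.9, 971.8 and 901.2. The 8 libraries without *Kdm5c* thus lay lower on average (969.1 ± 81.2 against 1135.8 ± 113, SD, n = 8), though the groups overlapped between 999.6 and 1093.8. *Smyd2* fell by 0.23 on the log2 scale (SE 0.07, 95% interval -0.37 to -0.10, DESeq2, adjusted p = 0.0506), and 0.55% of all genes were called lower in this comparison. The 4 DM libraries were all under the 4 WT libraries (-0.34, adjusted p = 0.105), and *Kdm5c*-KO against WT gave -0.21 (adjusted p = 0.593). In the amygdala the 8 against 8 difference was -0.19 (95% interval -0.40 to 0.03, adjusted p = 0.771), where WT replicate 1 alone held 1725.7 normalised counts.

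The call on *Smyd2* rested on single libraries and on the test used. Leaving out any one of DM replicates 2 and 4, *Kdm5c*-KO replicates 1 and 4, *Kmt2a*-HET replicates 1 and 2 or WT replicates 1, 3 and 4 ended it, with adjusted p from 0.00509 to 0.138 over the 16 omissions. The adjusted p was 0.213 by edgeR, which called 0.931% of all genes here. With spike-in size factors in DESeq2 it was 0.9999, and 0.101% of all genes were called. The log2 difference there was -0.39, where the median of all genes was -0.14. Conversely, *Smyd2* passed for DM against WT once *Kdm5c*-KO replicate 1, *Kmt2a*-HET replicate 1, 3 or 4 or WT replicate 2 was left out, with 0.00913 as the lowest adjusted p, and also with a term for the libraries numbered 1 (adjusted p = 0.0804). In the same hippocampal comparison 5 of 6 choroid plexus markers were called higher without *Kdm5c*, with summed counts of 908.9 to 25510 for WT, 932.2 to 2594 for *Kmt2a*-HET, 1343 to 103900 for *Kdm5c*-KO and 1114 to 27360 for DM. *Gfap* was called higher, and the part of these shifts in the *Smyd2* value was not tested. *Smyd2* shares its position with *Gm38245* on the same strand and *Gm37422* on the other, so reads of these genes could have been split.

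*Kdm6b* and *Kdm7a* came next in the hippocampus. Both encode JmjC demethylases, KDM6B acting on H3K27 methylation and KDM7A on H3K9 and H3K27 methylation. *Kdm6b* stood at 1586.8 ± 147 normalised counts in the 8 mice with reduced *Kmt2a* (1362.6 to 1825.0) and at 1308.0 ± 163 in the 8 others (1119.0 to 1578.7), a log2 difference of 0.28 (SE 0.08, adjusted p = 0.168). *Kdm7a* stood at 1782.4 ± 270 against 1410.3 ± 202 (log2 difference 0.34, SE 0.10, adjusted p = 0.2004). Neither passed the threshold, and the ranges overlapped for both. With WT replicate 2, *Kdm5c*-KO replicate 2 or *Kmt2a*-HET replicate 3 left out both passed (lowest adjusted p = 0.0316 for *Kdm6b* and 0.0274 for *Kdm7a*), *Kdm6b* also without WT replicate 1, and a term for the libraries numbered 1 gave both an adjusted p of 0.0965. With spike-in size factors the differences turned to -0.11 for *Kdm6b* and -0.04 for *Kdm7a*, where the median of all genes was -0.40. The summed hippocampal markers were 16720 to 34120 in *Kmt2a*-HET and 18900 to 25170 in DM, against 10550 to 22340 in WT and 9130 to 23580 in *Kdm5c*-KO, and their part in these values was not tested. In the amygdala the same comparison gave 0.08 (95% interval -0.08 to 0.25) for *Kdm6b* and 0.10 (-0.17 to 0.37) for *Kdm7a*, and the member with the smallest p there was *Ash2l*, with 881.2 to 1007.8 normalised counts against 888.8 to 1076.5 and a log2 difference of -0.07 (95% interval -0.17 to 0.04, adjusted p = 0.9998).

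*Kdm3a*, an H3K9 demethylase, had the smallest p in the amygdala by *Kdm5c*. Its mean was 771.3 ± 85.1 normalised counts in the 8 mice without *Kdm5c* (664.5 to 891.0) and 657.2 ± 86.5 in the 8 with it (545.5 to 842.9), a log2 difference of 0.23 (SE 0.09, adjusted p = 0.313). Without WT replicate 4, whose 842.9 counts were the highest of the 8 intact libraries, it passed the threshold. In the hippocampus the difference was 0.05 (95% interval -0.07 to 0.17). *Ezh2* had the largest difference between 2 genotypes, 0.74 in DM against *Kmt2a*-HET in the amygdala (SE 0.25, adjusted p = 0.220), from 71.2, 92.6, 75.0 and 107.7 normalised counts in DM and 67.5, 38.4, 47.2 and 54.0 in *Kmt2a*-HET. The DM libraries were all above the *Kmt2a*-HET ones, at levels where counting error is large. With only these 8 libraries in the fit the adjusted p was 0.0891, and 3.25% of all genes were called. In that comparison 3 of 6 choroid plexus markers (*Ttr*, *Kl* and *Aqp1*) were called higher in DM, with summed counts of 762.3 to 40620 against 899.4 to 1033, and their part in the *Ezh2* value was not tested. In the hippocampus the same genotypes held 70.3 to 104.4 and 63.2 to 103.2.

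More members differed between the regions. Over the 16 mice, 24 of the 40 genes were called between hippocampus and amygdala, 20 higher and 4 lower in the hippocampus, in 1 fit of genotype and region (DESeq2, adjusted p under 0.1). Of all genes tested 45.2% were called, 21.8% higher and 23.4% lower, and of the 13357 genes with a mean of at least 50 normalised counts 61.7% were called, 31.7% higher and 30% lower. The members were therefore called about as often as other expressed genes (60%), with 50% higher and 10% lower, and their median log2 difference was 0.13 against 0.00 over genes with a mean of at least 50. All 24 had the same sign in each of the 4 genotypes. In 20 of them at least 14 of 16 mice showed the called direction, in 7 all 16 did, and *Ezh1* was the only member whose 2 regions did not overlap. Of the called genes with a mean of at least 50, 71.7% had at least 14 mice and 34.2% all 16 in the called direction, and 6.27% of genes with such a mean did not overlap between regions.

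**Figure D2:**
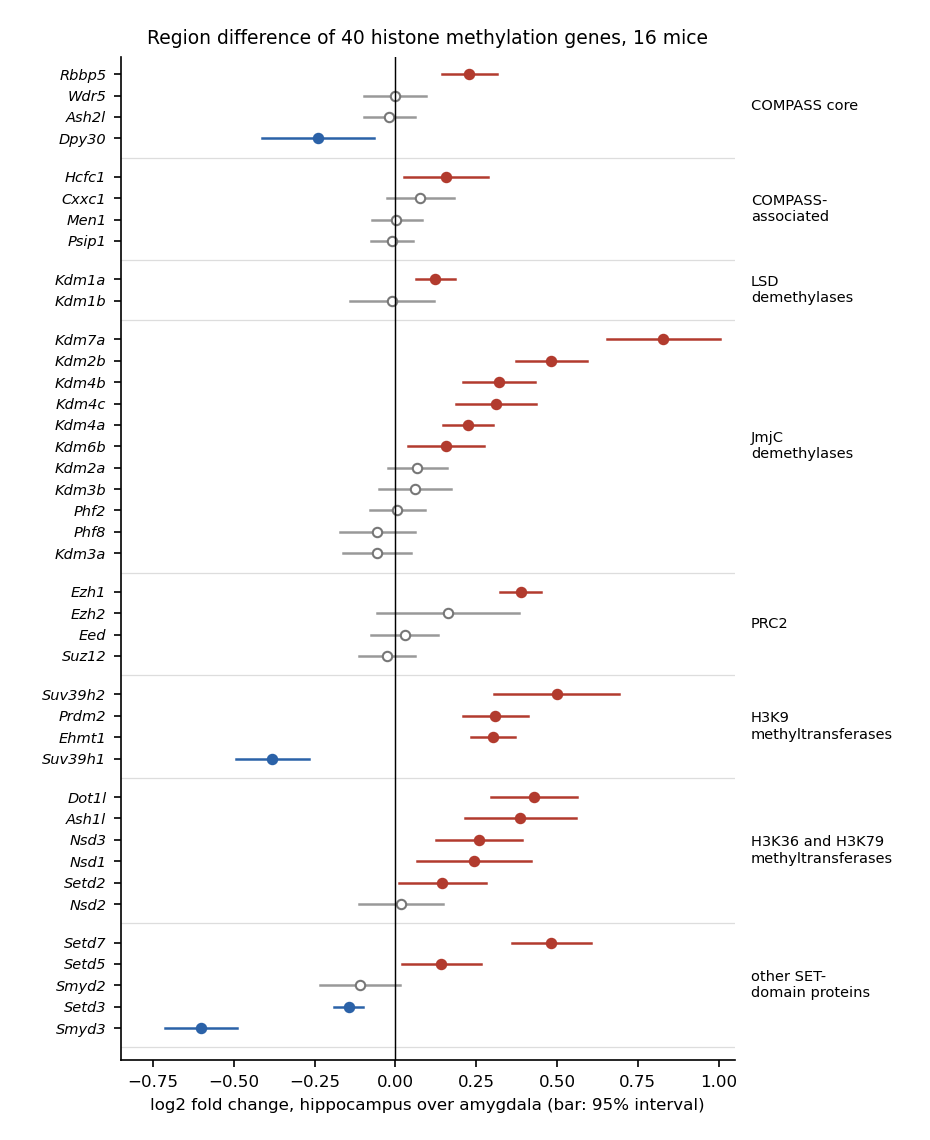
Log2 fold change of each gene in the hippocampus over the amygdala with its 95% interval, from 32 libraries of 16 mice, grouped by role. Filled points (red higher, blue lower) mark the 24 genes called at an adjusted p under 0.1. Of the 6 enzymes for H3K36 and H3K79, 5 are called higher, and the 4 blue genes lie to the right of 0 instead when scaled by spike-in counts.

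These directions are relative to the bulk of the RNA in each library. With size factors from the spike-in counts 37 members were called, against 61.1% of all genes. The median of all genes moved from -0.01 to 0.64 in that fit. A shift of that size raises nearly every gene, so a member higher on the main scale gains no support from it. On the spike-in scale *Smyd3* (0.06), *Suv39h1* (0.27), *Setd3* (0.52) and *Dpy30* (0.42) changed sign, all below the median of all genes, and *Smyd3*, *Suv39h1* and *Dpy30* lost their calls. The regions also differed in cell markers. Of 6 neuronal markers 4 were higher in the hippocampus, while *Gad1* and *Gad2* were lower, of 6 astrocyte markers *Gfap* was higher and 3 were lower, 1 of 6 oligodendrocyte markers (*Cnp*) was lower, 5 of 6 choroid plexus markers were higher and *Clic6* lower, and 0 of the 6 microglial and 5 endothelial markers were called. The part of this makeup in the values below was not tested.

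The COMPASS core split. RBBP5 and DPY30 are both structural subunits, yet *Rbbp5* stood at 957.2 ± 57.1 normalised counts in the amygdala and higher, at 1123 ± 108, in the hippocampus (log2 0.23, SE 0.04, adjusted p = 5.91e-07), while *Dpy30* went from 169.8 ± 24.9 (126.1 to 220.2) to 144.5 ± 28.7 (89.2 to 204.3). *Dpy30* was lower in the hippocampus (-0.24, SE 0.09, adjusted p = 0.0202) in 12 of 16 mice, but higher with spike-in scaling (0.42). *Wdr5* (95% interval -0.10 to 0.10) and *Ash2l* (-0.10 to 0.06) were not called. Among the associated genes *Hcfc1*, which encodes a cofactor of the SETD1 and KMT2 complexes, was called higher (0.16, adjusted p = 0.0448), and *Men1*, *Psip1* and *Cxxc1* were not. The H3K4 demethylase gene *Kdm1a* was 0.12 higher (SE 0.03, adjusted p = 0.000316), and *Kdm1b* gave -0.01 (95% interval -0.14 to 0.12).

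Of the 11 JmjC genes 6 were called, all higher in the hippocampus. *Kdm7a* (ENSMUSG00000042599.8, chromosome 6, 39136623 to 39206789, minus strand) had the largest difference of the 40, and *4930599N23Rik* overlaps it on the other strand. Its normalised counts ran from 557.9 to 1262 in the amygdala (median 872.6) and from 1134 to 2383 in the hippocampus (median 1591). The hippocampus was higher in 15 of 16 mice, although the regions overlapped between 1134 and 1262, and the log2 difference was 0.83 (SE 0.09, adjusted p = 3.09e-19). *Kdm2b*, which encodes an H3K36 demethylase and subunit of a PRC1 complex that binds CpG islands, held 448.8 to 676.9 normalised counts in the amygdala (median 568.7) and 673.4 to 918.7 in the hippocampus (median 790.1). It was 0.48 higher on the log2 scale (SE 0.06, adjusted p = 1.55e-16), in 16 of 16 mice. *Kdm4b* (0.32), *Kdm4c* (0.31), *Kdm4a* (0.22) and *Kdm6b* (0.155) followed. The KDM4 enzymes demethylate H3K9 and H3K36, and *Kdm6b* was higher in 11 mice, the fewest of the called members. *Kdm2a*, *Kdm3a*, *Kdm3b*, *Phf2* and *Phf8* were not called, with intervals between -0.17 and 0.17.

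Of the 4 PRC2 genes 1 was called. *Ezh1* (ENSMUSG00000006920.14, chromosome 11, 101191115 to 101226463, minus strand) held 1403 to 1665 normalised counts in the amygdala with a median of 1512, and 1770 to 2178 in the hippocampus with a median of 2002. Every hippocampal library lay above every amygdala library, and the log2 difference of 0.39 (SE 0.03, adjusted p = 5.93e-32) had the smallest p of the 40. Its paralogue *Ezh2* gave 0.16 with a wide interval (-0.06 to 0.38), and *Eed* (-0.08 to 0.13) and *Suz12* (-0.11 to 0.06) were not called. Whether *Ezh1* differed from these subunits in its region difference was not tested.

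The H3K9 methyltransferases were called in all 4 cases, and the SUV39H pair went opposite ways, though not with spike-in scaling. *Suv39h1* (ENSMUSG00000039231.18, chromosome X, 8061171 to 8074760, minus strand, overlapped by *Gm14820* on the other) held 533.2 to 886.1 normalised counts in the amygdala with a median of 708.5, and 458.4 to 640.8 in the hippocampus with a median of 525.9. It was lower in the hippocampus in 15 of 16 mice (-0.38, SE 0.06, adjusted p = 4.25e-10), but 0.27 higher with spike-in scaling. *Suv39h2* had few counts, 54.3 ± 11.9 and 76.6 ± 10.04, and was higher in the hippocampus in 16 of 16 mice (0.50, SE 0.10, adjusted p = 2.42e-06). With spike-in scaling its fitted difference was 1.18. *Ehmt1*, the GLP methyltransferase behind Kleefstra syndrome, went from 744.5 ± 34.8 (703 to 802.2) to 918.1 ± 60.1 (786.7 to 1001) and was higher in all 16 mice (0.30, SE 0.04, adjusted p = 1.23e-16). *Prdm2* was 0.31 higher (SE 0.05).

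Of the 6 genes for H3K36 and H3K79 methylation 5 were called higher in the hippocampus, as were 43.1% of genes of more than 8 kb with a mean of at least 50. *Dot1l*, the only H3K79 methyltransferase, led with 0.43 (SE 0.07, adjusted p = 2.28e-09), followed by *Ash1l* (0.39, SE 0.09), *Nsd3* (0.26, SE 0.07), *Nsd1* (0.24, SE 0.09) and *Setd2* (0.145, SE 0.07). *Nsd2* gave 0.02 (95% interval -0.11 to 0.15) and was not called. The call on *Setd2* (adjusted p = 0.0783) was lost, with adjusted p up to 0.176, when any one of 7 mice was left out, DM replicates 3 and 4, *Kdm5c*-KO replicate 2, *Kmt2a*-HET replicates 2, 3 and 4 and WT replicate 2. All 6 have more than 8 kb of merged exons.

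Among the remaining SET-domain genes, *Setd7*, whose product monomethylates H3K4 and other proteins, was higher and *Smyd3* was lower in the hippocampus. *Setd7* ran from 2232 to 3743 normalised counts in the amygdala with a median of 3335, and from 3379 to 5318 in the hippocampus with a median of 4577, higher in 16 of 16 mice (0.48, SE 0.06, adjusted p = 9.13e-14). *Smyd3* (ENSMUSG00000055067.15, chromosome 1, 178951960 to 179518041, minus strand), a SMYD methyltransferase reported to act in the cytoplasm as well, ran from 630 to 1057 in the amygdala with a median of 856.6, and from 491.6 to 657.2 in the hippocampus with a median of 548.6. All 16 mice were lower in the hippocampus, only the lowest amygdala library (WT replicate 1) overlapped the hippocampal range, and the log2 difference was -0.60 (SE 0.06, adjusted p = 3.445e-25), against 0.06 with spike-in scaling. *Setd3* moved little but evenly, from 3637 ± 179 (3306 to 3886) to 3289 ± 80.1 (3158 to 3400) (-0.145, SE 0.02, adjusted p = 2.165e-09) in 15 of 16 mice, and gave 0.52 with spike-in scaling. *Setd5* was 0.14 higher (adjusted p = 0.0545, and 0.1075 without DM replicate 4), and *Smyd2* was not called (-0.11, 95% interval -0.235 to 0.01).

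**Figure D3:**
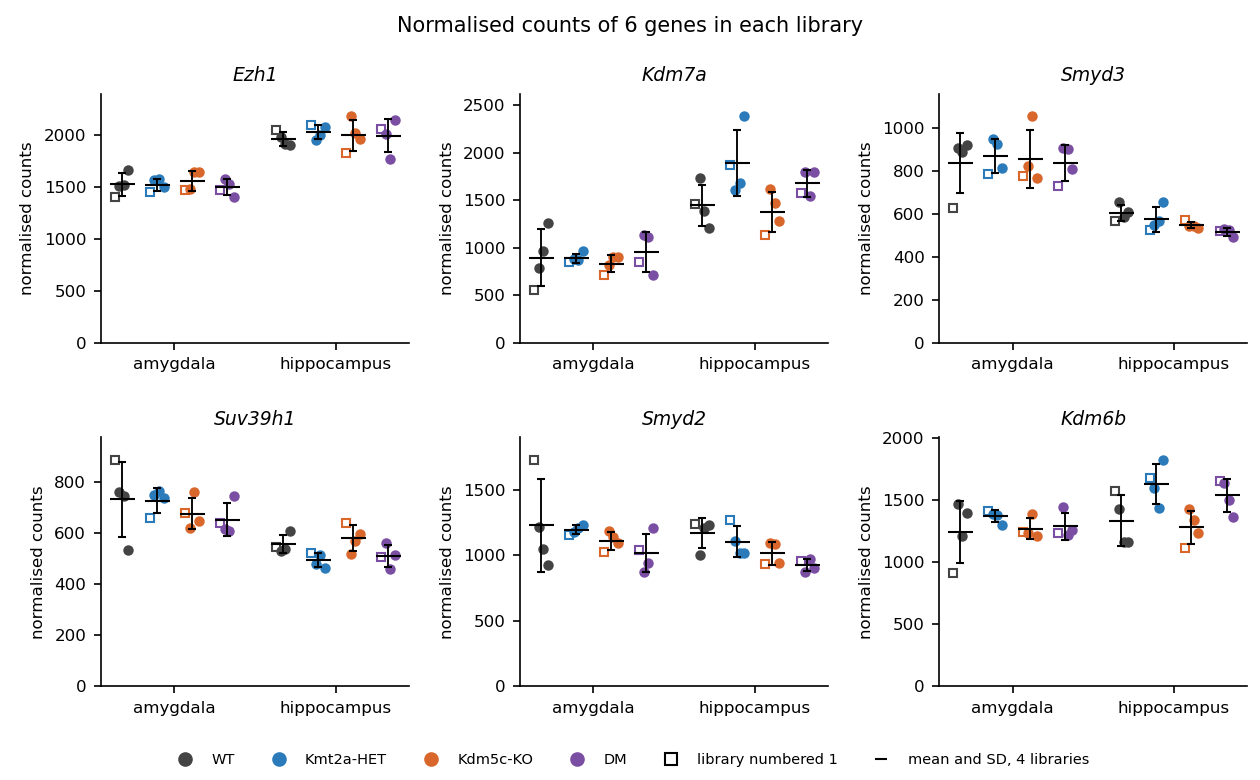
Normalised counts of 6 genes in every library, with the mean and SD of 4 mice per group; open squares are the libraries numbered 1. *Ezh1* separates the regions completely (1403 to 1665 against 1770 to 2178), *Smyd3* and *Suv39h1* lie lower in the hippocampus on this scale but not with spike-in scaling, and *Smyd2* shows the overlap of genotypes between 999.6 and 1093.8 in the hippocampus.

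In the 4 WT mice alone, 8 members were called between regions, against 16.9% of all genes (8.01% higher and 8.92% lower). *Ezh1* (0.37), *Kdm7a* (0.70), *Ehmt1* (0.33), *Kdm2b* (0.34), *Setd7* (0.46) and *Dot1l* (0.40) were higher in the hippocampus, and *Smyd3* (-0.47) and *Setd3* (-0.19) were lower. Without the amygdala library of WT replicate 2 *Ezh1*, *Ehmt1* and *Dot1l* remained called, without its hippocampal library 4 did, without the hippocampal library of replicate 3, 5 did, and with the mouse as a block or by edgeR *Kdm2b* and *Setd3* lost their calls. With spike-in size factors 0 of the 8 remained called, in a fit that called 1.47% of all genes. Whether the region difference depended on genotype was tested over all 32 libraries, and 0 of the 40 passed, against 0.0422% of all genes. No member had an unadjusted p under 0.05 in that likelihood ratio test of DESeq2, which 2.04% of all genes had. The lowest p was that of *Dot1l*, with 1489 to 2102 (amygdala) and 1697 to 3383 (hippocampus) normalised counts, whose mean within-mouse log2 difference ran from 0.18 ± 0.19 for *Kdm5c*-KO to 0.59 ± 0.36 for *Kmt2a*-HET, with WT at 0.41 ± 0.21 and DM at 0.53 ± 0.14 (SD, n = 4).

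*Kdm2b* was followed to its transcripts, since its locus holds 2 promoters far apart. The gene (ENSMUSG00000029475.17) lies on the minus strand of chromosome 5 (122870665 to 122989823, mm10), where GENCODE M21 lists 20 transcripts. The full-length form *Kdm2b*-203 (4999 bases, 23 exons) starts at 122988533, and 8 transcripts, itself included, start within 2000 bases of that position. *Kdm2b*-201 (3532 bases, 12 exons) starts 88178 bases downstream, at 122900355, inside the gene. As background, the long protein carries the JmjC demethylase domain, and the short one lacks it but keeps the CXXC domain that binds unmethylated CpG. The 2 promoter windows below, 250 bases before to 50 after the start, come from the RefSeq annotation of GRCm38.p6, with starts 26 and 5 bases from those of GENCODE. Capitals mark GGGCGG or its reverse complement CCGCCC, the GC box read by SP1-type factors, and overlapping matches run together.
Kdm2b upstream start, chr5:122988458-122988757, minus strand: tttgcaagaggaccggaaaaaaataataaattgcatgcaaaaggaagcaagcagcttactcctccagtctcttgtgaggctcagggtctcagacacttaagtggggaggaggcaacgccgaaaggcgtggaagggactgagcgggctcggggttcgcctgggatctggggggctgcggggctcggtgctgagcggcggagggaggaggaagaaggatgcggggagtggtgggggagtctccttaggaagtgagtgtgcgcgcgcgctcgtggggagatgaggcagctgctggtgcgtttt
Kdm2b internal start, chr5:122900301-122900600, minus strand: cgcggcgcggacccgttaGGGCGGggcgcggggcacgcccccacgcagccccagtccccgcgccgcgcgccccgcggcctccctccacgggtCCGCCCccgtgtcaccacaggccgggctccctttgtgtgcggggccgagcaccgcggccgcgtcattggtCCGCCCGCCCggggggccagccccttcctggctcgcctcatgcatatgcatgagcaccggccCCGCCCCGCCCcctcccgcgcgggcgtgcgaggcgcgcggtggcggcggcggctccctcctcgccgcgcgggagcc
The printed upstream window, that of the most abundant upstream transcript, holds 18 CpG and no GC box, and the internal window holds 49 CpG and 6 GC boxes. A second upstream window (start at 122989099, the start of *Kdm2b*-202 and *Kdm2b*-210) holds 28 CpG and 1 GC box, and a second internal window 47 CpG and 6 GC boxes.

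In the estimated transcript counts the 2 starts of *Kdm2b* went opposite ways between the regions. Transcripts from the upstream start summed to 264.3 ± 48.6 normalised counts in amygdala libraries (139.8 to 326.6, median 272.4) and reached 532.4 ± 100 in hippocampal ones (363.5 to 707.5, median 518.7). The regions did not overlap, and the mean log2 ratio within mice was 1.01 ± 0.30 (SD, n = 16). The internal start went the other way in 14 of 16 mice, from 265.3 ± 49.8 (182.6 to 376.3) to 206.2 ± 53.9 (102.5 to 299.2), a mean log2 ratio of -0.39 ± 0.39, which is smaller than the shift of all genes with spike-in scaling. The share of the upstream start in all *Kdm2b* counts therefore went from 47.1 ± 7.85% to 67.5 ± 7.79% and was higher in the hippocampus in 16 of 16 mice. In the amygdala the share was 46.3 ± 12% for WT, 50.2 ± 2.20% for *Kmt2a*-HET, 44.5 ± 10.9% for *Kdm5c*-KO and 47.5 ± 4.26% for DM (SD, n = 4). The same genotypes had hippocampal shares of 66.3 ± 6.13%, 61.0 ± 5.18%, 69.6 ± 11.3% and 73.1 ± 2.19%. In the hippocampus the shares of *Kmt2a*-HET (53.8 to 65.8%) lay below those of DM (70.0 to 75.2%), and every other pair of genotypes overlapped in both regions. The lowest amygdala share, 28.8%, was that of *Kdm5c*-KO replicate 1. Transcripts share most exons, so these sums rest on the estimator that divided the reads, which is not stated, and no test was run on them. *Gm43411* and *Gm44574* on the same strand and *A930024E05Rik* and *Rnf34* on the other overlap the locus.

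**Figure D4:**
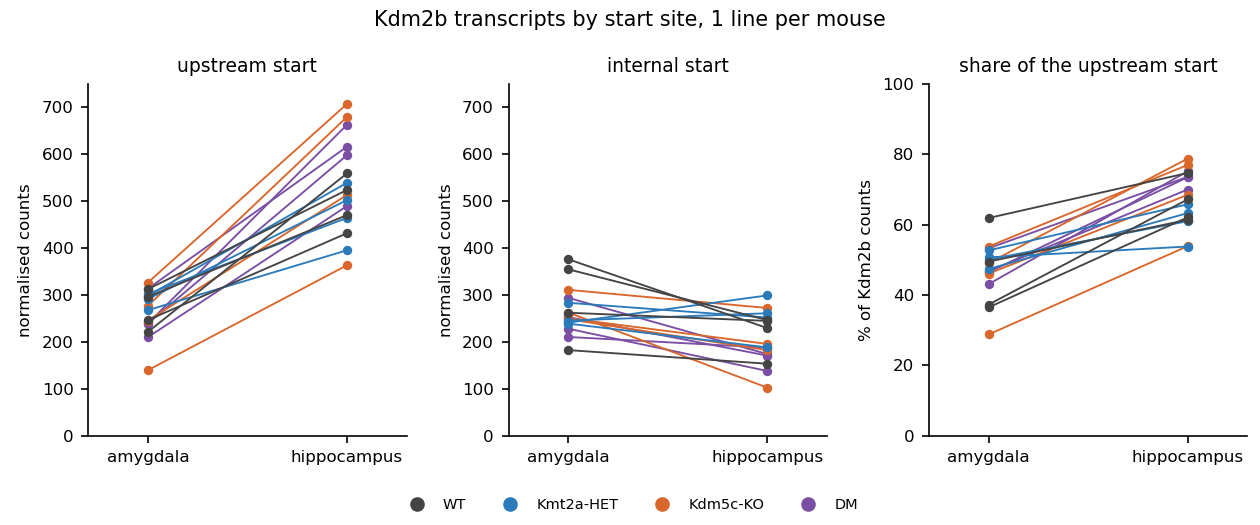
Normalised counts of *Kdm2b* transcripts from the upstream and the internal start and the share of the upstream start (% of all *Kdm2b* counts), with 1 line per mouse joining its 2 regions. All 16 lines rise for the upstream start and for its share, and 14 of 16 fall for the internal start.

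Promoters were also read for *Ezh1* (smallest p between regions), *Kdm7a* (largest region difference) and *Smyd2* (called between genotypes). They again came from RefSeq on GRCm38.p6 with the same marking, and *Smyd3* had no window listed.
Ezh1, chr11:101226414-101226713, minus strand: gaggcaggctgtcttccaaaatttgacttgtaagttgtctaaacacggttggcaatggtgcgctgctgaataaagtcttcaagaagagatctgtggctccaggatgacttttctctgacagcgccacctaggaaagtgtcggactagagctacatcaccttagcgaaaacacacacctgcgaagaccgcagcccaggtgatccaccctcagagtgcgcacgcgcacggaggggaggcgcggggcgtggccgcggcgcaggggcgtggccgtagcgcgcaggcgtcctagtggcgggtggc
Kdm7a, chr6:39206724-39207023, minus strand: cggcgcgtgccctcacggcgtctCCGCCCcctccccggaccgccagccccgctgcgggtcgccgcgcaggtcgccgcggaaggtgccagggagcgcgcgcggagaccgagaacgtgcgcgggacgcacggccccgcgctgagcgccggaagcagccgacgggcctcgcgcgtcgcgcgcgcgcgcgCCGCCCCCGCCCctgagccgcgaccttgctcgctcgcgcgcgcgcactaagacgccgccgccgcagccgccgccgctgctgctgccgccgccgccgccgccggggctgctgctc
Smyd2, chr1:189922242-189922541, minus strand: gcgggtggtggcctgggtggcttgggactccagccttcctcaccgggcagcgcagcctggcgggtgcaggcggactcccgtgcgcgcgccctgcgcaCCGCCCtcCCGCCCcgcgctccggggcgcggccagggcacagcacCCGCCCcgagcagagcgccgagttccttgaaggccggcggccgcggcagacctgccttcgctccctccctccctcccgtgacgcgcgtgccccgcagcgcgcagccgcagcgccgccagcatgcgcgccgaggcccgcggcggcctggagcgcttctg
The *Kdm7a* window holds 65 CpG and 3 GC boxes and the *Smyd2* window 43 CpG and 3 GC boxes, whereas *Ezh1*, which also differed between regions, holds 23 CpG and no GC box. Windows were listed for 27 of the 40 genes (40 windows in all), and 13 genes had none. The median window of the members held 28 CpG, with a range of 0 to 65, against 7 over all 32851 windows, and 36 of the 40 exceeded that median. GGGCGG on either strand was in 65% of the members' windows and in 35.7% of all, CCAAT in 40% and 37.4%, CCGGAAG in 10% and 8.86%, TGACGTCA in 5% and 1.79%, and CACGTG in 2.5% and 7.15%. TATAAA was in 0 of the 40 windows and in 13.6% of all windows. CpG-rich promoters without a TATA box are known from broadly expressed genes, and a match to these letters is a description of the sequence only.

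The libraries numbered 1 held fewer counts of the long members. The log2 difference of these libraries from the other 3 of their genotype, averaged over the 4 genotypes, fell with the length of merged exons, with Spearman's rho of -0.754 (amygdala) and -0.738 (hippocampus) over the 40 genes, and -0.600 and -0.557 over 13358 genes with a mean over 50. These rhos are descriptions across genes of the same libraries. The 18 members longer than 8 kb had medians of -0.28 (amygdala, 17 below 0) and -0.175 (hippocampus, 18 below 0), and the 22 shorter members had medians of 0.01 in both. *Nsd1* (17.5 kb) stood at -0.46 and -0.43, *Ash1l* (14.8 kb) at -0.46 and -0.36, *Nsd2* at -0.39 and -0.33, *Nsd3* at -0.33 and -0.26 and *Setd5* (18.35 kb) at -0.35 and -0.26, below 0 in all 4 genotypes and both regions. At the other end *Dpy30* (1.15 kb), *Cxxc1* and *Wdr5* stood at 0.28, 0.27 and 0.19 in the amygdala. As every genotype and region has 1 such library, they add to the spread within each group.

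**Figure D5:**
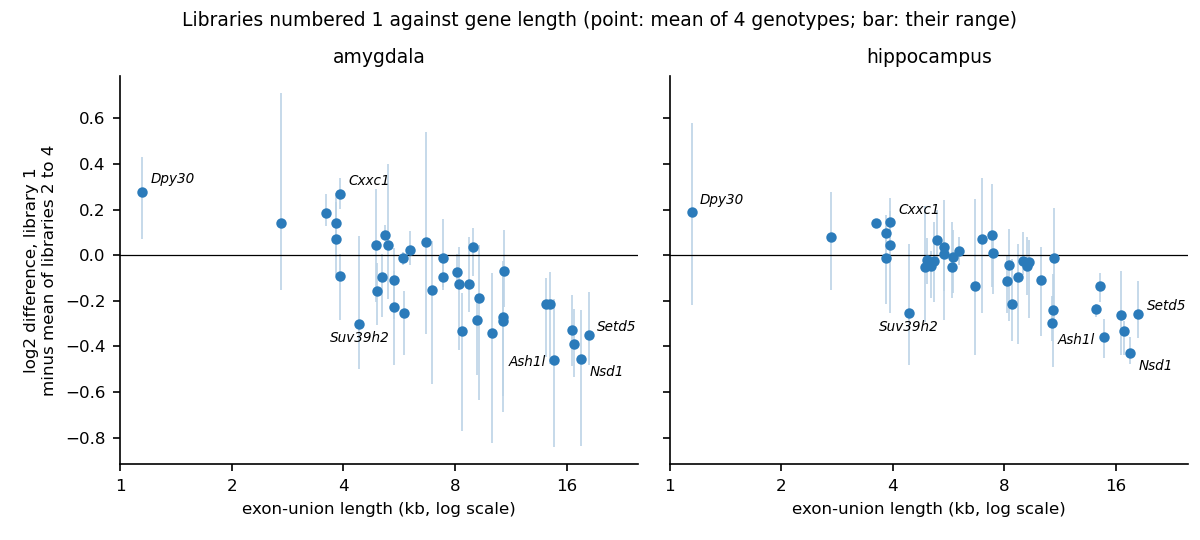
Mean log2 difference of the libraries numbered 1 from libraries 2 to 4 of the same genotype (point, mean of 4 genotypes; bar, their range) against the merged exon length of each of the 40 genes in kb on a log axis. Points fall from about 0.28 for *Dpy30* to -0.46 for *Ash1l* and *Nsd1* in the amygdala, with a like slope in the hippocampus.

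The region difference was also related to length, though more weakly. Its log2 value rose with length at rho 0.311 over the 40 genes and 0.149 over the genes with a mean of at least 50. Of the 18 members over 8 kb, 11 (61.1%) were called higher in the hippocampus, against 43.1% of such genes, and of the 22 shorter members 9 (40.9%), against 28.9%. A term for the libraries numbered 1 kept the 24 region calls and added *Cxxc1*.

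Related genes of the same pathways were read from 5 further lists. Of the 11 KMT2, SETD1 and KDM5 genes 6 were called higher and 0 lower in the hippocampus (median log2 0.15). Of 8 further erasers 2 were higher and 1 lower (median 0.08), of 15 further writers 4 and 2 (0.07), and of 8 accessory subunits of PRC2 3 and 1 (0.02). Of 10 CoREST subunits 8 were higher and 1 lower (median 0.29), where CoREST is the complex in which LSD1 (*Kdm1a*) works. Beside these counts stand the 61.7% of genes with a mean of at least 50 that were called (31.7% higher and 30% lower), and the 45.2% of all genes. *Rcor1*, the scaffold of that complex, went from 459.8 ± 47.5 to 568 ± 58.5 normalised counts (0.30, SE 0.05, adjusted p = 1.51e-07), *Hdac1* from 425.4 ± 29.2 to 540.6 ± 57.5 and *Gse1* from 2048 ± 266 to 4095 ± 828. *Zmym3* was the one called lower (-0.14, adjusted p = 0.00179). Between genotypes the calls in these lists were few. With *Kdm5c* lost, *Prdm16* was called higher and *Kdm5c* itself lower in both regions and *Setd1b* lower in the hippocampus, and with reduced *Kmt2a* none of these genes was called by DESeq2 in either region.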

How the data were processed

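The authors isolated RNA with added ERCC spike-ins, prepared directional libraries with oligo-dT priming, mapped paired-end reads to mm10 with STAR 2.5.3a, kept uniquely mapped reads and removed duplicates, and the submitters' processing notes also name featureCounts (Subread 1.5.0), deepTools 3.1.3 and DESeq2 1.14.1. The authors deposited expected counts per gene and per transcript for each region. How the expected counts were estimated, the annotation release and the strand setting of the counting are not given in the sources used here. The 92 ERCC rows stayed out of library sizes (their share is given with the depth).

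Gene symbols came from GENCODE M21, which matched 53620 of 53715 gene IDs, with 95 unmatched, and 36 members matched with the ID version and 4 without it. Of 108 further listed genes 107 matched. Expected counts were rounded to whole numbers. DESeq2 1.42.0 in R 4.3.3 fitted the 16 libraries of a region by genotype (or by both alleles, additively or with their interaction), the 32 libraries by genotype and region, the 8 WT libraries by region, and the region-by-genotype term by a likelihood ratio test, with Benjamini-Hochberg adjustment over all genes tested and a threshold of 0.1. Levels per kb, transcript sums, promoter windows and the comparison with libraries numbered 1 are descriptions with no test. Alternatives were edgeR 4.0.16 (quasi-likelihood test, TMM), TMM or spike-in size factors in DESeq2, a filter of 10 counts in 4 libraries, a threshold of 0.05, replicate blocks, a term for libraries numbered 1, only the 8 libraries compared, and each library or mouse left out. Scripts were tested on simulated counts.

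Both regions came from the same 16 mice, and deviations from the group means of a mouse's 2 libraries correlated over genes with a median r of 0.169 (over 0.1 in 14 of 16 mice). Within a region 11 of 24 (amygdala) and 8 of 24 (hippocampus) same-numbered pairs exceeded 0.1 (6 of 6 and 4 of 6 among the libraries numbered 1). As not every pair did, numbers within a region were not taken to pair the samples. The 40 genes and all lists were chosen with earlier results of these data known. Values by library or range, or as mean and SD for levels per kb, were given for members called between genotypes, up to 5 with the smallest adjusted p in each direction between regions, the smallest p of each 8 against 8 and of the region-by-genotype test, the 3 highest and lowest levels per kb, and the largest and smallest coefficient of variation. *Kdm7a* between genotypes, *Ezh2* between genotypes and *Kdm2b* by transcript were chosen after their values were seen.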

Additional observations from a re-analysis of the deposited data

Results flagged for a closer look

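In groups of 4 mice, single libraries of 25 members that stood far from the other 3 were sought with Dixon's test. It picked 6 of 200 groups, and chance alone picks about 1 in 20 groups, which would be 10 here. *Kdm4b* stood high in DM replicate 2 of the amygdala, at 2167.6 normalised counts against 1871.5 to 1917.0 in the other DM libraries, and in *Kmt2a*-HET replicate 4 of the hippocampus, at 2862.9 against 2068.7 to 2202.1. *Nsd3* stood high in WT replicate 2 of the hippocampus, at 2638.1 against 1997.6 to 2104.9. *Nsd2* stood low in *Kmt2a*-HET replicate 1 of the hippocampus, at 1595.7 against 1956.7 to 1985.5, and *Smyd3* stood low in WT replicate 1 of the amygdala, at 630.0 against 888.6 to 924.5, both in libraries numbered 1. *Smyd2* stood low in WT replicate 2 of the hippocampus, at 999.6 against 1203.6 to 1240.7, and without that library DM against WT passed the threshold.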

How the results depend on the processing

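Counts of called members were recomputed in 441 settings over 19 comparisons, and 404 kept the count within 1.5 times of the reported one. The member called with *Kdm5c* loss in the hippocampus was lost with spike-in size factors (0 called, against 0.101% of all genes). It was also lost with edgeR (0, against 0.931%) and at an adjusted p under 0.05 (0, against 1.86%). Between regions in WT the stricter threshold left 5 (13.7% of all genes). With spike-in size factors 37 members were called between regions over all genotypes (61.1% of all genes) and 0 in WT (1.47%). The same factors turned the region differences of *Smyd3* (0.062), *Suv39h1* (0.27), *Setd3* (0.52) and *Dpy30* (0.42) and the values of *Kdm6b* (-0.11) and *Kdm7a* (-0.041) with reduced *Kmt2a* in the hippocampus (where the median of all genes was -0.40). DM against WT in the hippocampus gained *Smyd2* (1 called) with the filter on low counts, with only the 8 libraries compared and with a term for libraries numbered 1, which also gave 2 with reduced *Kmt2a* (*Kdm6b* and *Kdm7a*). With only its 8 libraries DM against *Kmt2a*-HET in the amygdala gave 2 (*Ezh2* and *Kdm3a*). The cause of these changes was not tested.

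With the replicate number as a block, 1 member was called for DM against *Kmt2a*-HET in the amygdala (*Ezh2*, against 1.84% of all genes). In the hippocampus 1 each was called for DM against WT (*Smyd2*, 1.63%) and DM against *Kdm5c*-KO (*Kdm3b*, 1.37%). With reduced *Kmt2a* there 2 were called (*Kdm6b* and *Kdm7a*, 0.837%). With the mouse as a replicate block 24 members were called between regions (49.8% of all genes) and 6 in WT (15.9%). The other comparisons kept their counts with these blocks. Leaving out 1 library or mouse gave 0 to 1 called with *Kdm5c* loss in the amygdala and for DM against WT in the hippocampus, 0 to 2 with *Kdm5c* loss and with reduced *Kmt2a* in the hippocampus, 22 to 25 between regions and 3 to 9 in WT (3 and 4 without the amygdala or hippocampal library of WT replicate 2, and 5 without the hippocampal one of replicate 3), and 0 in each of the other genotype comparisons and the region-by-genotype test. With *Kdm5c* loss in the hippocampus *Phf2* was called beside *Smyd2* without *Kmt2a*-HET replicate 3, and in its place without WT replicate 3. Per kb of the most abundant transcript, *Psip1* stood at 1047 and 1039 in amygdala and hippocampus, and *Setd3* at 1320 and 1194. On that measure *Men1* stood at 570.8 in the amygdala, *Ezh2* at 24.6 and 27.4, and *Suv39h2* last at 12.55 and 17.71. Depth limits *Ezh2* and *Suv39h2*, whose means lay between 54.3 and 76.6 counts.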

Other observations

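Some genes of the related lists had larger region differences than most of the 40. *Smyd1*, known as a methyltransferase of muscle, stood at 109.7 ± 27.5 normalised counts in the amygdala and 36.9 ± 17.2 in the hippocampus (log2 -1.58, SE 0.17, DESeq2, adjusted p = 3.05e-20), and *Phf1*, an accessory subunit of PRC2, at 1207 ± 171 and 835.3 ± 101.1 (-0.53, SE 0.06, adjusted p = 2.37e-16). *Kdm4d*, a relative of *Kdm4a* without its reader domains, went from 37.6 ± 9.12 to 21.2 ± 7.42 (-0.825, SE 0.16), at low counts. On the other side stood *Gse1* (0.997, SE 0.09), *Rcor3* (0.66, SE 0.08), *Jmjd1c* (0.49, SE 0.09) and *Kmt5a*, the H4K20 monomethylase (0.42, SE 0.06).

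Estimated shares of single transcripts were steady for some members and unsteady for others. *Smyd2*-201 held 97.8 ± 1.56% of *Smyd2* counts in the amygdala and 97.7 ± 0.77% in the hippocampus (SD, n = 16), and *Kdm1a*-203 held 57.8 ± 5.88% and 58.4 ± 5.37%. *Ash2l*-210 went from 26.4 ± 5.31% to 20.1 ± 5.69% and was higher in the hippocampus in 1 of 16 mice. The main transcript of *Ezh1*, *Ezh1*-203 (53.8% of counts in the amygdala and 70.1% in the hippocampus), ranged from 0.0325 to 85.1% between amygdala libraries, as did *Ezh1*-202 in the other direction (0 to 80.1%). These 2 transcripts have nearly the same length, 4193 and 4207 bases, and no reading was taken from their shares.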
